A study of Mus musculus with 6 samples.

Results

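Nuclear hormone receptor genes were followed in mouse L929 fibroblasts exposed to TNF-α together with actinomycin D, against control cells. The set held the protein-coding genes whose symbols are those of the NR0 to NR6 groups or of the retinoic acid, retinoid X, ROR, PPAR, thyroid hormone, oestrogen, oestrogen-related, vitamin D, progesterone and HNF4 receptors. Nr1d1 and Nr1d2 were left out by the same rule. This gave 47 of the 54532 genes in the count table, of which 29 passed the filter on low counts that left 13290 genes to test. A further 3 pseudogene or antisense entries carry matching symbols and were not taken. The name rule also took in Nr2c2ap, whose product binds a receptor and is not a receptor itself.

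RNA sequencing libraries came from 2 groups of 3. Treated cells were wild-type L929 cells given 10 ng/ml TNF-α and 1 µg/ml actinomycin D for 12 hours, and control cells were wild-type L929 cells labelled as controls. L929 is a single mouse fibroblast line that is widely used to study killing by tumour necrosis factor, an inflammatory cytokine, while actinomycin D binds DNA and blocks transcription. No group received either agent alone, so each difference belongs to the combination. The protocol text names both agents for every sample, controls included, so the groups rest on the titles and treatment labels. The labels do not state whether the libraries of a group are separate cultures, and the p-values therefore cover only the scatter among them, technical scatter included.

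Nuclear receptors are transcription factors, most of them switched by a small lipid-soluble ligand such as a steroid, retinoic acid, thyroid hormone, vitamin D, an oxysterol or a fatty acid. Many bind DNA at copies of the hexamer AGGTCA, often as a pair with a retinoid X receptor, and recruit corepressors without ligand and coactivators with it. Others, the orphan receptors, have no settled ligand. In fibroblasts the glucocorticoid, vitamin D and retinoic acid receptors are known for regulating matrix and inflammatory genes.

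Library totals ran from 16056207 to 18036322 counts. Between 15705 and 18849 genes had a count in treated libraries, against 19219 to 20116 in control libraries, and TMM scaling factors were 0.640 to 0.797 against 1.34 to 1.53. Receptor genes took 0.0391% to 0.0488% of all counts in treated libraries and 0.104% to 0.105% in control libraries. After TMM scaling their sum was 611 to 628 CPM (counts scaled to a common library size) in treated libraries, against 687 to 784 CPM in control libraries. In bulk samples fewer cells that express a gene and less of its RNA per cell cannot be told apart. Of 13 fibroblast markers, 9 were tested, 7 were higher and 2 lower, with a summed level of 21096 to 23931 CPM in treated and 6724 to 8693 CPM in control libraries, while Dcn, Lum and Fap were at 0 in every library. Macrophage markers summed to 54.9 to 70.3 CPM in treated and 7.15 to 9.52 CPM in control libraries. Of these 7 markers, 4 were tested and 3 called higher (Cd68, Cd14 and Lyz2), and Itgam was at 0. Ptprc and Adgre1 each had 0 counts over the treated and 1 over the control libraries and were not tested. Among all tested genes 34.6% were higher and 40.2% lower. Lymphocyte markers summed to at most 2.21 CPM and endothelial markers to at most 0.538 CPM in any library, and none of them was tested. Only 1 of 6 epithelial, 1 of 4 adipocyte and 1 of 4 hepatocyte markers was tested. The tested epithelial marker Krt14 and adipocyte marker Fabp4 were called higher, and the tested hepatocyte marker was not called. Epcam, Krt5 and Kdr were at 0. The part of these shifts in the receptor results was not tested.

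Among the 29 tested receptor genes, 13 were lower and 8 higher in treated cells (edgeR quasi-likelihood test, adjusted p of 0.05 or less over all tested genes). That is 44.8% lower and 27.6% higher, beside 40.2% and 34.6% of all tested genes, so the receptor shares lay near those of all genes. Treated and control libraries did not overlap for 23 receptor genes, or 79.3%, beside 77.9% of all tested genes. The median log2 fold change was −0.36 for receptor genes and −0.18 for all tested genes. Changes of at least 2-fold made up 11 of the 13 falls and 7 of the 8 rises. The share of such changes over all tested genes was not taken, so these counts are not read as particular to receptors.

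The split between rises and falls depended on what was held equal between groups. With library size alone, 2 receptor genes were higher and 19 lower. The counts were 0 and 24 once ribosomal protein genes were held equal, and 0 and 25 once mitochondrially encoded genes were. The median of all tested genes moved by −1.04, −2.38 and −2.15 on the log2 scale in these settings, and the receptor median lay −0.20, −0.21 and −0.19 from it. All tested genes split into 2276 higher and 7924 lower, 251 and 10944, and 334 and 10333. Every rise below is therefore a rise relative to a typical tested gene under TMM scaling, not relative to all counts of the library. No receptor gene kept a rise once ribosomal protein or mitochondrially encoded genes were held equal.

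**Figure D1:**
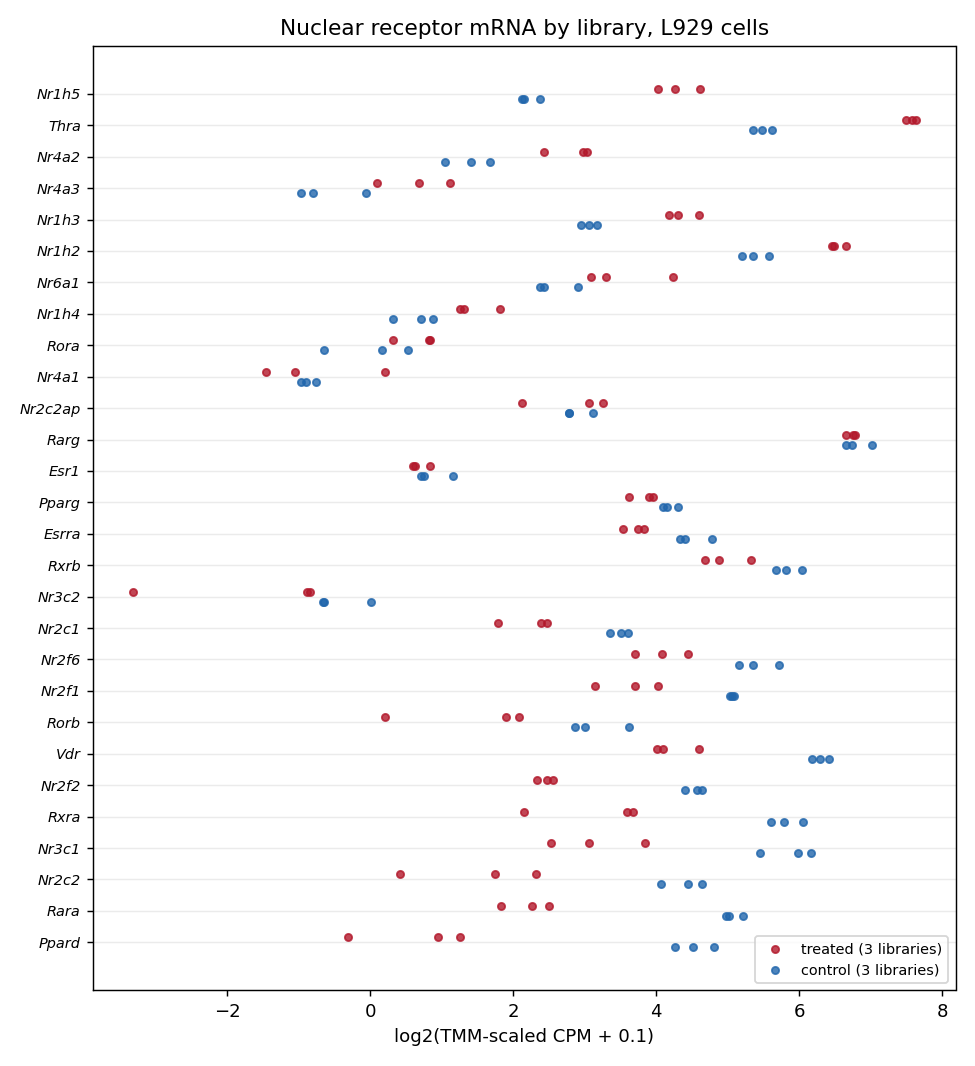
Level of tested receptor genes in each library, as log2 of TMM-scaled CPM with 0.1 added; red points are the 3 treated libraries and blue points the 3 control libraries. Genes are ordered by fold change, with Nr1h5 and Thra to the right in treated libraries at the top under this scaling and Rara and Ppard to the left at the bottom.

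**Figure D2:**
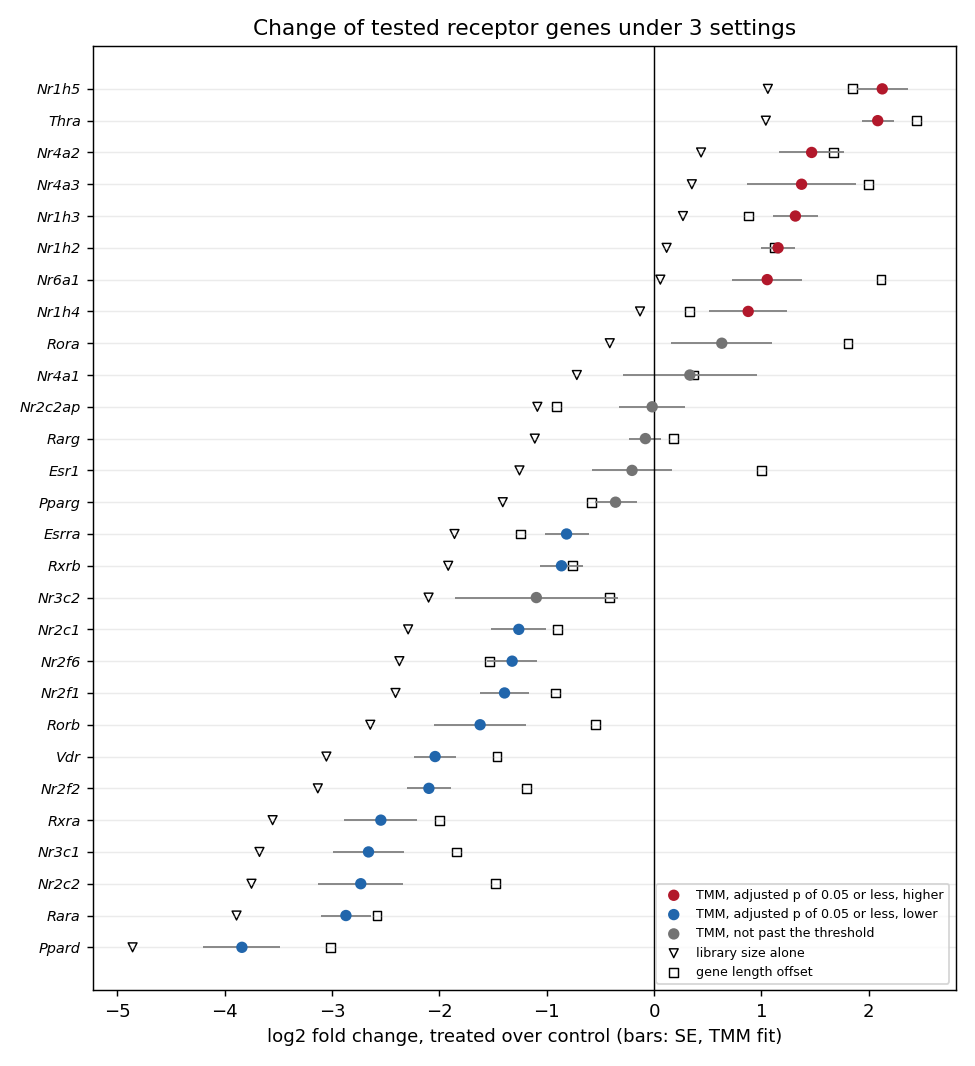
Log2 fold change, treated over control, for tested receptor genes, with the standard error of the TMM fit as a bar. Open triangles give the value with library size alone, about 1 unit further left, and open squares the value with the trend on gene length removed.

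Promoters were taken from RefSeq on GRCm38.p6, from 250 bases before to 50 after each annotated start, and 42 of the 47 receptor genes had an entry. AGGTCA was searched on both strands because it is the hexamer that the receptors themselves bind. It stood in 11 of 63 promoters of receptor genes (17.5%) and in 5340 of 32851 promoters of all genes (16.3%). Of the 26 tested receptor genes with an entry, 6 held it, of which Nr1h4 and Nr6a1 were higher, Rara and Rxra lower, and Rarg and Pparg not called. The stretches before an annotated start are shown for 5 of them, with the hexamer or its complement TGACCT in capitals. In Rara it lay 33 bases after such a start. A match describes the letters only.
Rxra, chr2:27709185-27709269, plus strand: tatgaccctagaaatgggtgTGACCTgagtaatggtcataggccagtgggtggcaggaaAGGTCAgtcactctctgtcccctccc
Rarg, chr15:102257722-102257767, minus strand: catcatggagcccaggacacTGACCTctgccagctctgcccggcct
Pparg, chr6:115361096-115361141, plus strand: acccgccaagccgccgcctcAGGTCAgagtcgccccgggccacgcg
Pparg, second start, chr6:115362320-115362348, plus strand: tttatataagggacgcgaggAGGTCAaga
Nr6a1, chr2:38784535-38784626, minus strand: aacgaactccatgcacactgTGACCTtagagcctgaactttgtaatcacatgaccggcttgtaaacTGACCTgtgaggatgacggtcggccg
Nr1h4, chr10:89506847-89506892, minus strand: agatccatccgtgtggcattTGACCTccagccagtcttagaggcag
The pair in Rxra began 87 and 48 bases before an annotated start, on opposite strands, and the pair in Nr6a1 91 and 45 bases before one. For Rxra, Nr6a1 and Nr1h4 the annotated start used lies well inside the deposited span of the gene. Whether these cells use it was not tested. TGACGTCA, the cyclic AMP response element, stood in 2 of 63 receptor promoters (3.18%) and in 1.79% of all promoters.

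The retinoid receptors parted by subtype. Rara and Rxra fell strongly, Rxrb fell less, and Rarg, the most abundant receptor transcript of control cells, was not called. Rara, on chromosome 11 from 98927818 to 98974942, encodes retinoic acid receptor α. Its level was 3.44, 4.69 and 5.57 CPM in treated libraries, against 37.1, 31.4 and 32.2 CPM in control libraries. All 3 treated values lay far below the lowest control value, and the log2 fold change was −2.87 ± 0.23 (SE, 3 libraries a group; edgeR adjusted p = 1.36e-06). Rxra, on chromosome 2 from 27676440 to 27762957, encodes the common partner RXRα and had 4.33, 12.7 and 11.9 CPM in treated libraries, against 66.1, 48.4 and 55.1 CPM in control libraries. Treated replicate 1 was the lowest, the groups did not overlap, and the log2 fold change was −2.55 ± 0.34 (edgeR adjusted p = 6.42e-05). The sister gene Rxrb had 40.2, 29.3 and 25.6 CPM in treated libraries, against 65.5, 51.0 and 56.4 CPM in control libraries. Here too every treated library was below every control library, by a log2 fold change of −0.86 ± 0.20 (edgeR adjusted p = 0.00233). Rarg, the retinoic acid receptor γ gene of skin and connective tissue, ran from 101 to 110 CPM in treated and from 101 to 129 CPM in control libraries, a log2 difference of −0.08 ± 0.15 (edgeR adjusted p = 0.637).

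The PPAR genes, whose products sense fatty acids, also parted. Ppard, on chromosome 17 from 28232700 to 28301474, encodes the widely expressed PPARδ and had the steepest fall of the 29. It was at 0.706, 2.30 and 1.83 CPM in treated libraries, against 27.9, 19.1 and 22.8 CPM in control libraries. Only 8, 26 and 24 counts stood behind the treated values, all far below controls, and the log2 fold change was −3.84 ± 0.36 (edgeR adjusted p = 3.79e-06). Ppard met the filter on low counts through the control group, since not every treated library was over the cutoff. Pparg, the adipogenic PPARγ, had 12.1 to 15.5 CPM in treated and 16.9 to 19.7 CPM in control libraries, so the groups did not overlap. Its log2 difference of −0.36 ± 0.20 was not called (edgeR adjusted p = 0.118), though without treated replicate 1 it was (−0.51, adjusted p = 0.0301). Ppara, the PPAR of liver, was at 0 in every library.

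The vitamin D and thyroid hormone receptors moved in opposite directions under TMM scaling; with ribosomal protein genes held equal both were lower in value, and Thra was not called. Vdr, on chromosome 15 from 97854425 to 97910630, had 16.1, 17.1 and 24.2 CPM in treated libraries, against 85.6, 72.4 and 78.2 CPM in control libraries. Even the highest treated library stayed well under the controls, with a log2 fold change of −2.04 ± 0.20 (edgeR adjusted p = 4.20e-06). Thra, on chromosome 11 from 98740638 to 98769006, encodes thyroid hormone receptor α and, by alternative splicing, a form that binds no hormone. It stood at 199, 190.0 and 179 CPM in treated libraries, against 48.9, 40.6 and 44.5 CPM in control libraries. The treated libraries were close to each other and far above the controls, a log2 fold change of 2.08 ± 0.15 (edgeR adjusted p = 8.02e-07). Thra shares 263 of its 4614 exon bases with the opposite-strand gene Nr1d1, which had 98 counts over the treated and 1411 over the control libraries. Sources used here do not give whether reads were counted by strand, so reads of such pairs may be mixed. Thrb, the β receptor gene, had 2 counts over the treated and 6 over the control libraries and was not tested.

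The NR1H group, sensors of oxysterols and bile acids, held 4 of the 8 rises under TMM scaling, beside 34.6% of all tested genes called higher. All of these NR1H rises turned negative with ribosomal protein genes held equal. Nr1h5, on chromosome 3 from 102939658 to 102964133, encodes FXRβ, a lanosterol-responsive receptor in mice. It had 24.5, 19.2 and 16.2 CPM in treated libraries, against 4.26, 5.07 and 4.35 CPM in control libraries. Its log2 fold change of 2.13 ± 0.24 was the highest of the 29, with no overlap between the groups (edgeR adjusted p = 1.16e-05). Nr1h2, the broadly expressed LXRβ, had 89.9, 100.3 and 88.2 CPM in treated libraries, against 47.5, 36.5 and 41.0 CPM in control libraries. Nr1h3, the LXRα of liver and macrophages, had 19.6, 24.05 and 18.1 CPM in treated libraries, against 8.94, 7.60 and 8.22 CPM in control libraries. In both LXR genes every treated library was above every control library, by 1.16 ± 0.16 for Nr1h2 (edgeR adjusted p = 5.43e-05) and 1.32 ± 0.21 for Nr1h3 (edgeR adjusted p = 0.000160). Nr1h4, the bile acid receptor FXR, had 2.30, 2.39 and 3.44 CPM in treated libraries, against 1.74, 1.14 and 1.54 CPM in control libraries. The gap between the groups was narrow, and the log2 fold change of 0.88 ± 0.36 just passed the threshold (edgeR adjusted p = 0.0473). That call was lost without each single library except treated replicate 1, with values of 0.63 to 0.98 (edgeR adjusted p = 0.0585 to 0.181), and with DESeq2 (0.88, adjusted p = 0.0799). The replicate number as a block also ended it (0.87, edgeR adjusted p = 0.101).

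Among the steroid receptors, the glucocorticoid receptor gene carried nearly all of the signal. Nr3c1 had 8.21, 5.66 and 14.2 CPM in treated libraries, against 43.6, 71.7 and 63.1 CPM in control libraries. Both groups were spread but did not meet, and the log2 fold change was −2.66 ± 0.33 (edgeR adjusted p = 3.39e-05). Nr3c2, the mineralocorticoid receptor gene, had 0 to 0.458 CPM in treated and 0.531 to 0.909 CPM in control libraries, with 11 counts against 49. It passed the filter through the control group alone, and its log2 difference of −1.10 ± 0.76 was not called (edgeR adjusted p = 0.209). Esr1, encoding oestrogen receptor α, had 1.41 to 1.68 CPM in treated and 1.53 to 2.13 CPM in control libraries, which overlapped. The progesterone receptor gene Pgr was at 0 in every library, and Esr2, encoding oestrogen receptor β, had 7 counts over the treated and 5 over the control libraries.

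Of the ROR genes, which encode receptors tied to the circadian clock and to lymphocyte fate, Rorb was called and Rora was not. Rorb had 1.06, 3.62 and 4.12 CPM in treated libraries, against 7.20, 12.1 and 7.94 CPM in control libraries. The treated values were all lower, and the log2 fold change was −1.62 ± 0.43 (edgeR adjusted p = 0.00534). Rora had 1.15 to 1.68 CPM in treated and 0.538 to 1.34 CPM in control libraries, which overlapped. Esrra, encoding oestrogen-related receptor α, a regulator of mitochondrial genes, had 14.1, 13.3 and 11.5 CPM in treated libraries, against 27.3, 21.1 and 19.99 CPM in control libraries. Each treated value fell below the lowest control, with a log2 fold change of −0.82 ± 0.20 (edgeR adjusted p = 0.00381).

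All 5 COUP-TF and testicular receptor genes of the NR2 group were lower in treated cells, beside 40.2% of all tested genes. Nr2f2, on chromosome 7 from 70351944 to 70366735, encodes COUP-TFII, a factor of mesenchyme and veins. Its level was 5.47, 4.95 and 5.80 CPM in treated libraries, against 24.8, 23.7 and 21.1 CPM in control libraries. Replicates were tight and the groups far apart, with a log2 fold change of −2.10 ± 0.21 (edgeR adjusted p = 4.92e-06). Nr2f1, encoding COUP-TFI, had 8.74, 12.9 and 16.3 CPM in treated libraries, against 32.6, 33.2 and 34.0 CPM in control libraries. Nr2f6, encoding EAR2, a repressor best known in lymphocytes, had 16.8, 21.7 and 13.0 CPM in treated libraries, against 52.6, 35.4 and 40.6 CPM in control libraries. Neither gene overlapped between groups, and the log2 fold changes were −1.39 ± 0.23 for Nr2f1 (edgeR adjusted p = 0.000215) and −1.32 ± 0.23 for Nr2f6 (edgeR adjusted p = 0.000348). Nr2f6 shares 1622 of its 2983 exon bases with the opposite-strand gene Ocel1, which had 1001 counts over the treated and 1724 over the control libraries.

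The testicular receptors TR2 and TR4 come from Nr2c1 and Nr2c2 and bind paired hexamers, mostly as repressors. Nr2c2, on chromosome 6 from 92091390 to 92174294, had 3.27, 1.238 and 4.89 CPM in treated libraries, against 16.6, 24.8 and 21.7 CPM in control libraries. Its sister Nr2c1 had 5.47, 3.36 and 5.11 CPM in treated libraries, against 12.1, 10.1 and 11.3 CPM in control libraries. Treated libraries were the lower ones throughout, by −2.73 ± 0.40 for Nr2c2 (edgeR adjusted p = 0.000111) and −1.26 ± 0.26 for Nr2c1 (edgeR adjusted p = 0.00100). Nr2c2 shares 4590 of 14935 exon bases with the opposite-strand Mrps25, which had 1944 counts over the treated and 1746 over the control libraries. Nr2c2ap, whose product binds TR4, had 4.27 to 9.46 CPM in treated and 6.75 to 8.61 CPM in control libraries and was not called. It shares 1341 of its 1627 exon bases with the opposite-strand Rfxank, which had 39 counts over the treated and 178 over the control libraries.

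The NR4A genes encode early-response orphan receptors that need no ligand. Nr4a2, on chromosome 2 from 57106830 to 57124003, encodes NURR1 and had 5.30, 7.78 and 8.09 CPM in treated libraries, against 2.57, 3.11 and 1.98 CPM in control libraries. Nr4a3, encoding NOR1, had 0.971, 1.503 and 2.06 CPM in treated libraries, against 0.414, 0.858 and 0.474 CPM in control libraries. It met the filter through the treated group, with 11, 17 and 27 counts in treated and 10, 21 and 12 in control libraries. Treated libraries were higher in each case, by 1.47 ± 0.30 for Nr4a2 (edgeR adjusted p = 0.00101) and 1.37 ± 0.50 for Nr4a3 (edgeR adjusted p = 0.0281). The Nr4a3 call was lost without treated replicate 2 or 3 or control replicate 1 or 3, at 1.03 to 1.29 (edgeR adjusted p = 0.0880 to 0.138), and with the replicate block (1.38, edgeR adjusted p = 0.0565). Nr4a1, encoding NUR77, had 1.06, 0.265 and 0.382 CPM in treated libraries, against 0.414, 0.491 and 0.435 CPM in control libraries. Treated replicate 1 was above all controls and 2 treated libraries were below them, and the log2 difference of 0.33 became −0.53 without treated replicate 1.

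Nr6a1 encodes the germ cell nuclear factor, a repressor of pluripotency genes. It had 8.39, 9.72 and 18.8 CPM in treated libraries, against 5.09, 5.31 and 7.39 CPM in control libraries. Treated replicate 3 was about 2-fold above the other treated libraries, and the log2 fold change was 1.05 ± 0.33 (edgeR adjusted p = 0.0124). Without treated replicate 3 it was 0.57 (edgeR adjusted p = 0.0789), and the call was also lost without control replicate 1 (0.93, edgeR adjusted p = 0.0575) or control replicate 2 (0.95, edgeR adjusted p = 0.0519).

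The other 18 receptor genes were too low to test. Of these, 8 had no count in any library: Hnf4g, Nr0b1, Nr0b2, Nr2e1, Nr2e3, Nr5a2, Pgr and Ppara. A count of 0 allows up to 3 counts, or 0.229 to 0.265 CPM in a treated and 0.119 to 0.124 CPM in a control library, for counting error only. Rarb, a gene that retinoic acid induces, had 6 counts over the treated and 35 over the control libraries. It shares 1793 of 5265 exon bases with the opposite-strand Top2b, which had 1399 counts over the treated and 6197 over the control libraries. Hnf4a, a receptor of liver and gut, had 15 counts over the treated and 17 over the control libraries. The others with a count were Thrb, Esr2, Nr1i2, Nr1i3, Esrrb, Esrrg, Rxrg and Nr5a1, at 0 to 7 counts per group.

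Ratios of related receptors within a library do not depend on scaling; they show a shift between sisters, not how far either moved. Over 20 pairs within families, 10 did not overlap between groups. The share over other gene pairs was not taken, and 77.9% of single tested genes did not overlap, so this count is not read as particular to receptors. An exact two-sided permutation test of 3 against 3 cannot go below p = 0.1, which these 10 pairs reached (0.2 after adjustment over the pairs). The log2 ratio of Rara to Rarg counts was −4.85, −4.51 and −4.29 in treated libraries, against −1.80, −1.68 and −1.73 in control libraries. The groups lay far apart, and the difference was −2.82. Deposited lengths of this pair are 4365 and 4261 bases, and with the trend on gene length removed the log2 fold changes differed by −2.76. The ratio of Ppard to Pparg was −4.37, −2.66 and −2.70 in treated libraries, against 0.50, 0.17 and 0.37 in control libraries, a difference of −3.59. These genes differ in length, 7514 and 2953 bases, and with the length trend removed their fold changes differed by −2.43. Pparg had more counts than Ppard in all 3 treated libraries and fewer in all 3 control libraries.

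The ratio of Rxra to Rxrb was −3.20, −1.20 and −1.10 in treated libraries, against 0.01, −0.07 and −0.03 in control libraries, where the counts of the pair were almost equal. The difference was −1.80, or −1.12 without treated replicate 1; lengths are 5462 and 3698 bases, and the fold changes differed by −1.24 with the length trend removed. In the NR2C pair, Nr2c1 to Nr2c2 was 0.74, 1.41 and 0.07 in treated libraries, against −0.46, −1.29 and −0.94 in control libraries. The ratio was positive in every treated and negative in every control library, and the difference was 1.63. Nr2c1 is 4607 and Nr2c2 14935 bases long, and with the length trend removed their fold changes differed by 0.58. For Nr2f2 to Nr2f6, of 8625 and 2983 bases, the ratio difference of −0.76 had no counterpart then, at 0.34. Nr1h2 to Nr1h3 was 2.06 to 2.28 in treated and 2.26 to 2.41 in control libraries, a difference of −0.15 with overlap. Relative to Nr1h5 the LXR genes shifted by −0.95 for Nr1h2 and −0.80 for Nr1h3. Rora to Rorb differed by 2.51, and by 1.81 without treated replicate 1.

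**Figure D3:**
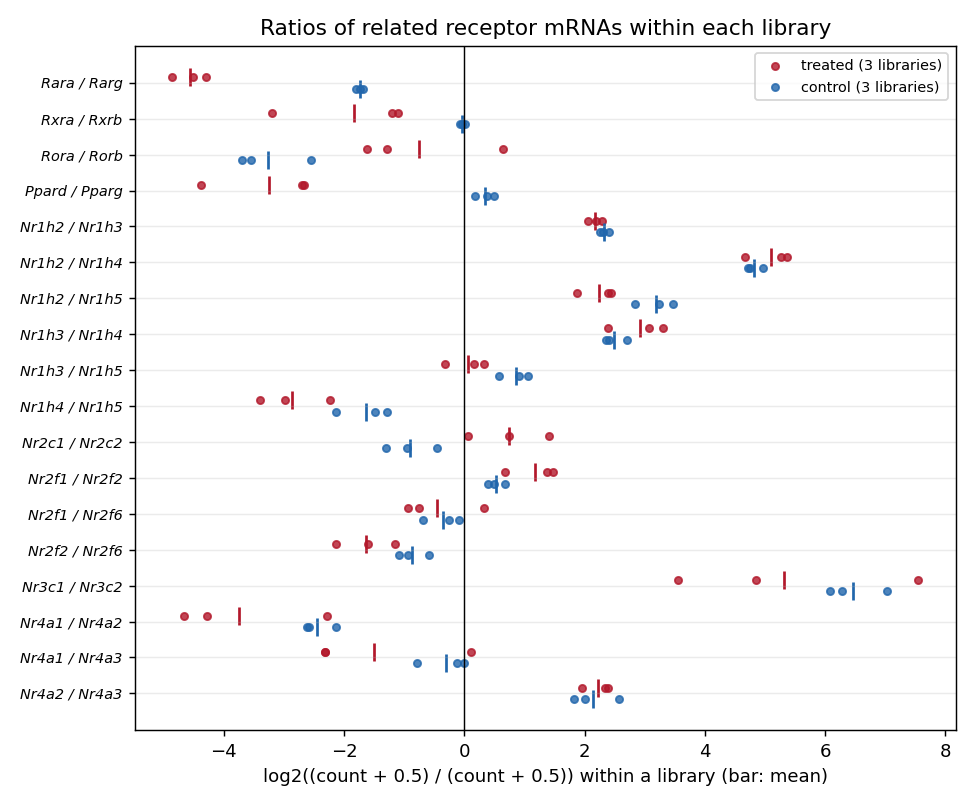
Log2 ratio of counts of related receptor genes within each library, each count with 0.5 added, for the related pairs reported; red is treated, blue is control and the short bar is the mean of 3 libraries. Rara/Rarg, Rxra/Rxrb and Ppard/Pparg lie to the left in treated libraries, while Nr1h2/Nr1h3 and Nr4a2/Nr4a3 overlap.

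Per unit of length, the most abundant receptor transcripts were different genes in the 2 groups. On the deposited FPKM scale, Thra led in treated cells at 41.9 ± 3.8 (SD, n = 3), followed by Nr1h2 at 28.2 ± 2.6 and Rarg at 25.3 ± 0.6, with Rxrb at 8.78 ± 2.40 and Nr1h3 at 8.35 ± 1.42 behind them. In control cells Rarg led at 25.4 ± 3.4 FPKM, followed by Rxrb at 15.0 ± 1.9, Nr2f6 at 13.9 ± 2.8, Vdr at 13.4 ± 1.1 and Nr1h2 at 12.0 ± 1.6. Rarg stood clear of Rxrb in control libraries, whereas neighbours from Rxrb down to Rara overlapped in their values. Thra ranked 1 in treated and 7 in control cells, and Rxra 13 and 6. The sum over receptor genes was 145 to 166 FPKM in treated and 146 to 174 FPKM in control libraries. These FPKM values carry a factor per library beyond the library total, 1.22 to 1.64 in treated and 0.635 to 0.719 in control libraries, so levels are compared here between genes and not between groups.

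Genes of the machinery around the receptors were counted from lists of known cofactors, chaperones, ligand-handling genes and targets. Over all lists 57 genes were higher and 40 lower under TMM scaling, against 2 and 88 with ribosomal protein genes held equal, so the rises given here hold for TMM scaling. Of the named rises, Crabp2 and Fgf21 kept their call in the ribosomal setting, at 0.33 and 1.01 (edgeR adjusted p = 0.0287 and 0.0266), and Sult2b1 and Fgf21 in the mitochondrial setting, at 1.26 and 1.238 (edgeR adjusted p = 0.0267 and 0.00862). Sult2b1 met the filter on low counts through the treated group. Of 18 coactivator genes, 12 were lower (66.7%) and 1 higher (5.56%), beside 40.2% and 34.6% of all tested genes. Their median log2 fold change was −2.63, beside −0.18 for all tested genes. For this and the other lists, the values of all tested genes are not matched for gene length, along which fold changes fell. The part of length in the result of each list was not tested. All 3 p160 coactivators were among the falls. Ppargc1b, encoding PGC-1β, averaged 0.216 ± 0.150 CPM in treated and 6.96 ± 1.11 CPM in control cells (SD, n = 3 each), a log2 fold change of −4.93, or −5.69 without treated replicate 3. It passed the filter through the control group alone, with 1, 2 and 5 counts in treated libraries, against 139, 176 and 201 in control libraries. Ep300, encoding the acetyltransferase p300, averaged 1.93 ± 1.62 and 46.1 ± 2.2 CPM in the same order, at −4.55, or −5.16 without treated replicate 3. Ep300 met the filter through the control group, since not every treated library was over the cutoff. The methyltransferase gene Prmt1 was the single rise, at 1.48.

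Corepressors showed 9 falls (69.2%) and 3 rises (23.1%) among 13 genes, with a median of −1.40, beside 40.2% and 34.6% of all tested genes. Nrip1, which encodes RIP140, had a log2 fold change of −3.33 (−4.43 without treated replicate 3), and the scaffold gene Sin3a one of −3.03 (−3.70 without treated replicate 3). Its paralog Sin3b was higher by 1.73 and Hdac3, the histone deacetylase of the NCoR complex, by 1.42. Nrip1 met the filter through the control group, since not every treated library was over the cutoff. Ncor1, which encodes the corepressor NCoR1, was lower. Of 15 chaperone genes that hold steroid receptors ready for ligand, 9 were higher (60.0%) and 5 lower (33.3%), with a median of 1.04. Bag1, a nucleotide exchange factor, was higher by 2.49 and the ubiquitin ligase gene Stub1 by 1.28. Hspa8, the constitutive HSP70, averaged 69.1 ± 14.4 CPM in treated and 1410 ± 144 CPM in control cells, a log2 fold change of −4.35.

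Among genes that make, carry or clear ligands, 12 of 20 retinoid-handling genes were tested, of which 7 were higher (58.3%) and 5 lower (41.7%), with a median of 1.00, beside 34.6% higher and 40.2% lower of all tested genes. Crabp2, which carries retinoic acid to its receptors, averaged 958 ± 228 CPM in treated and 141 ± 17 CPM in control cells, a log2 fold change of 2.76. Adh1, an alcohol dehydrogenase gene, passed the filter through the treated group alone, with 36, 17 and 12 counts in treated and 2, 3 and 7 in control libraries. Its fitted rise was 3.46, or 2.76 without treated replicate 1. The retinol dehydrogenase genes Dhrs9 and Rdh10 were lower by log2 fold changes of −3.31 (−4.30 without treated replicate 3) and −1.93. Only 5 of 18 steroid, oxysterol, thyroid hormone and vitamin D genes were tested, with 4 higher and 1 lower. Sult2b1, an oxysterol sulfotransferase gene, was higher by 3.34 and the glucocorticoid-activating enzyme gene Hsd11b1 by 2.33. Sult2b1 met the filter through the treated group, since not every control library was over the cutoff. It had 42, 77 and 48 counts in treated and 6, 12 and 16 in control libraries. Hsd11b1 passed the filter through the treated group alone, with 29, 14 and 18 counts in treated and 3, 8 and 14 in control libraries. Srd5a1, encoding steroid 5α-reductase, was lower at −0.98, a call lost without treated replicate 2 or any control library, at −1.13 to −0.90 (edgeR adjusted p = 0.0529 to 0.107).

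Most lists of known target genes held members that moved in both directions. Of 10 tested LXR targets, 6 were higher (60.0%) and 3 lower (30.0%), with a median of 0.55, beside 34.6% higher and 40.2% lower of all tested genes. Apoe and the phospholipid transfer protein gene Pltp were higher by 2.03 and 2.41, whereas the sterol regulator gene Srebf1 and Mylip, which encodes the LDL receptor ligase IDOL, were lower by log2 fold changes of −2.37 and −2.20. Glucocorticoid receptor targets split into 5 higher (41.7%), 4 lower (33.3%) and 3 not called of 12, with a median of −0.04, near the shares of all tested genes. Anxa1, the anti-inflammatory annexin gene, was higher by 2.53, while Klf9 and the co-chaperone gene Fkbp5 were lower at −2.64 and −1.61. The metallothionein gene Mt2 was higher by 2.69 with overlapping groups. That call was lost without treated replicate 2 (1.54, edgeR adjusted p = 0.140) or any control library (2.49 to 2.83, edgeR adjusted p = 0.0850 to 0.237), and with the replicate block (2.05, edgeR adjusted p = 0.355).

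PPAR targets held 12 rises (75.0%) and 2 falls (12.5%) among 16, with a median of 1.28, beside 34.6% and 40.2% of all tested genes. The hormone gene Fgf21 was higher by 3.39 and the peroxisomal and mitochondrial isomerase gene Ech1 by 2.59, against −2.33 for the carnitine transferase gene Cpt1a and −1.78 for Angptl4, an inhibitor of lipoprotein lipase. Of 6 tested retinoic acid receptor targets, 3 were higher and 2 lower, on the same background. Stra8, a meiotic entry gene, was higher by 2.43, a call lost without treated replicate 1 (1.44, edgeR adjusted p = 0.125). It met the filter through the treated group, with 46, 13 and 14 counts in treated and 14, 13 and 1 in control libraries. Cyp26b1, which degrades retinoic acid, was lower at −1.41 and Dhrs3, a retinal reductase gene, at −1.23. The Dhrs3 call was lost without treated replicate 3 or any control library, at −1.38 to −1.01 (edgeR adjusted p = 0.0508 to 0.124), and with the replicate block (−1.23, edgeR adjusted p = 0.0565). Dhrs3 met the filter through the control group, since not every treated library was over the cutoff. Targets of oestrogen-related receptors showed 10 rises (76.9%) and 0 falls among 13, with a median of 1.77, beside the fall of Esrra itself. Cox5b, a cytochrome oxidase subunit gene, was higher by 2.50 and Cycs, encoding cytochrome c, by 2.36. Some genes stand in more than 1 list, and the edgeR adjusted p-values of the list genes named here without one ran up to 0.00441.

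**Figure D4:**
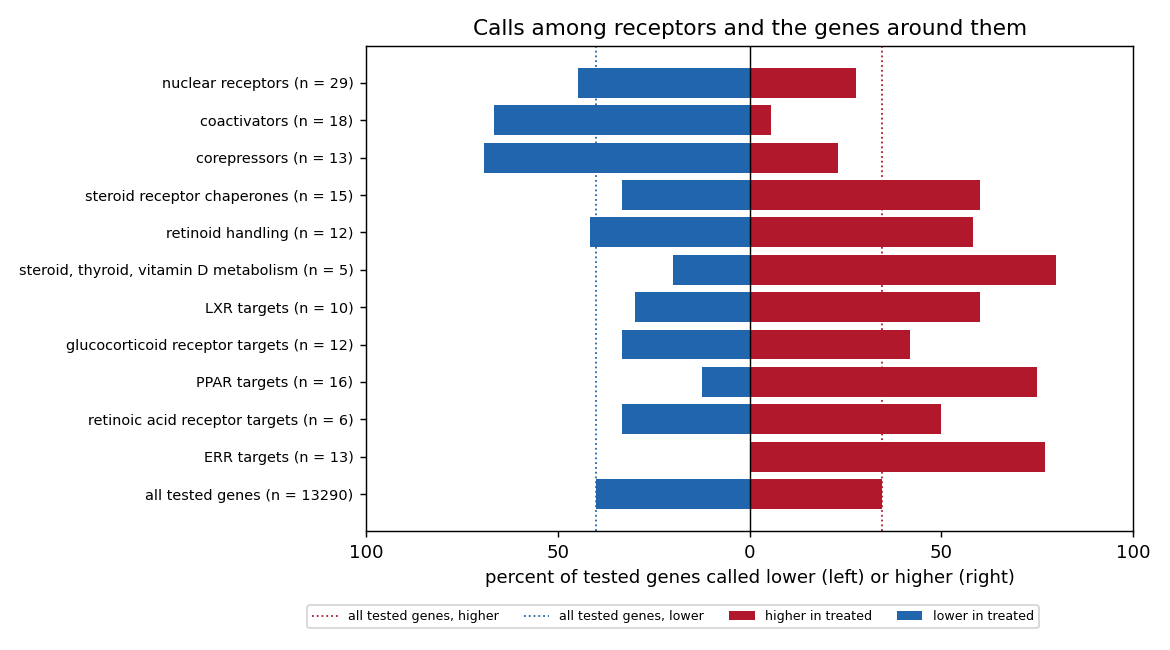
Percent of tested genes called higher (red, right) or lower (blue, left) in treated cells under TMM scaling, for the receptors and each list, with the number of tested genes in brackets. Dotted lines mark all tested genes, 34.6% higher and 40.2% lower; coactivators lie mostly to the left and ERR and PPAR targets to the right.

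Fold changes were set against features of the genes. Spearman's rho between log2 fold change and deposited gene length was −0.42 over the 29 receptor genes and −0.39 over 11432 tested protein-coding genes. With the length of the 3′ UTR it was −0.34 and −0.35, and with the number of ATTTA pentamers in the 3′ UTR −0.20 and −0.31. With the length of the coding sequence the receptor genes went the other way, at 0.22 against −0.39, and with the span of the gene on the chromosome rho was −0.20 and −0.34. Genes of a library share its depth and RNA quality, so these are descriptions. The 8 receptor genes called higher had a median length of 3706 bases and the 13 called lower one of 5462 bases. In all tested genes the median log2 fold change ran from 1.78 in the shortest of 10 length bins to −1.27 in the longest.

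With the length trend removed, 9 receptor genes were higher and 14 lower. Rorb lost its call, at −0.55 (edgeR adjusted p = 0.271), and so did Nr1h4, at 0.33 (edgeR adjusted p = 0.434). Rora became higher at 1.81 (edgeR adjusted p = 0.00572) and Esr1 turned to 1.00 (edgeR adjusted p = 0.0354), while Pparg and Nr2c2ap became lower at −0.58 and −0.91 (edgeR adjusted p = 0.0212 and 0.0213). Falls that were kept but shrank by more than 1.5-fold were those of Ppard (−3.02), Nr2c2 (−1.48), Nr3c1 (−1.84) and Nr2f2 (−1.19). Nr6a1 and Nr4a3 grew to 2.11 and 2.00. Ppard, Rara, Nr3c1, Rxra, Nr2f2, Vdr, Nr2f1, Nr2f6, Nr2c1, Rxrb and Esrra kept a lower call in each of 18 alternatives, and Nr2c2 in each of the 16 where it was tested. Some of these settings favour a lower call for any gene. Library size alone called 7924 of 13290 genes lower. Ribosomal protein and mitochondrially encoded genes held equal gave 10944 and 10333.

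**Figure D5:**
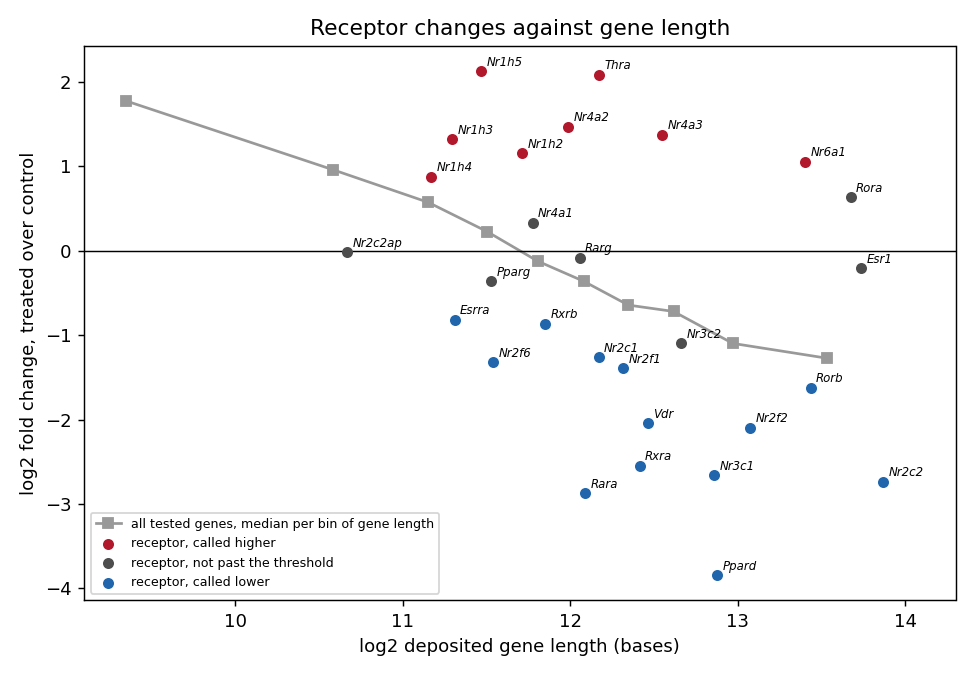
Log2 fold change, treated over control, against log2 gene length in bases for tested receptor genes; grey squares give the median of all tested genes in each of 10 bins of gene length. Thra and Rara have like lengths, 4614 and 4365 bases, and opposite changes.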

How the data were processed

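Transcript levels were measured by RNA sequencing in 3 treated and 3 control libraries. The authors deposited whole-number counts per Ensembl gene and FPKM values, both per the file headers, with gene lengths in bases, a value of type other. HISAT2 2.1.0, RSEM 1.3.1 and DESeq2 1.24.0 are named without role, per the submitters' processing notes, with the builds GRCm38 and mm10; strand use and the handling of shared reads are not given in the sources used here. The control columns carry a genotype name and were matched by number. Deposited FPKM equals the count over gene length times 1 constant per library.

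The main test was edgeR 4.0.16's quasi-likelihood test (R 4.3.3; filterByExpr, TMM factors, glmQLFit in its robust form, glmQLFTest), treated over control, with Benjamini-Hochberg adjustment over 13290 genes and a threshold of 0.05. Standard errors were obtained by dividing each log2 fold change by the root of its F. The fits were tested on simulated data. Receptor genes and gene lists were chosen with earlier results of these data known. Receptor genes called with a mean of at least 1 CPM are given per library; of each list, up to 2 rises and 2 falls past the threshold with at least 1 CPM are named, and a few other list genes were named after their values were seen. Genes in the marker lists were named likewise. The values of 1 tested receptor gene and 1 list gene are not reported here. Another listed gene, Sts, had no unique row and was not used. Exon overlaps, UTRs and ATTTA counts came from GENCODE release 21 of GRCm38, with which 45 of 47 receptor genes share coordinates, and figures from matplotlib 3.10.9. Alternatives were other scalings and filters, DESeq2 1.42.0, a replicate block, an offset for gene length (lowess span 0.3), leaving out each library, and limma 3.58.1 on FPKM (log2, pseudocount 1 or 0.1, mean of 1 or more).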

Additional observations from a re-analysis of the deposited data

How the results depend on the processing

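Of 18 alternatives, the edgeR test with median-ratio factors left 8 receptor genes higher and 13 lower. DESeq2 itself gave 6 higher and 13 lower, over 39 receptor genes. With a mean of at least 5 CPM, with limma on log2(FPKM + 1) and with limma on log2(FPKM + 0.1), 5 were higher in each, over 21, 20 and 20 receptor genes tested. Leaving out single libraries gave 5 to 8 higher and 13 or 14 lower. With library size alone, 2 receptor genes, 2276 of all genes and 28 list genes were higher, against 8, 4604 and 57 with TMM. With ribosomal protein genes held equal, 0, 251 and 2 were higher, and 24, 10944 and 88 lower. With mitochondrially encoded genes held equal, 0, 334 and 2 were higher, and 25, 10333 and 81 lower. By construction these settings move all genes together.

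In these 2 settings the rises turned, in the order ribosomal then mitochondrial, to −0.31 and −0.083 for Thra, −0.91 and −0.67 for Nr4a2, −0.99 and −0.72 for Nr4a3, −1.09 and −0.84 for Nr1h3, −1.23 and −1.02 for Nr1h2, −1.24 and −1.12 for Nr6a1, and −1.44 and −1.31 for Nr1h4, and to −0.32 for Nr1h5 with ribosomal protein genes held equal. Uncalled genes turned likewise, to −1.77 and −1.47 for Rora and −2.09 and −1.75 for Nr4a1. With library size alone these were −0.41 and −0.72, and Nr1h4 was −0.13. List genes turned to −0.94 and −0.69 (Prmt1), −0.69 and −0.44 (Sin3b), −1.01 and −0.74 (Hdac3), −1.13 and −0.89 (Stub1), and −0.38 and −0.12 (Apoe), and with ribosomal protein genes alone to −0.10 (Hsd11b1), −0.043 (Stra8) and −0.068 (Cycs).

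Near 0, Rarg became 0.035 with median-ratio factors, 0.0039 and 0.0043 with limma at pseudocounts of 1 and 0.1, and −0.18 to 0.0057 over left-out libraries. Nr2c2ap became 0.11 with median-ratio factors, 0.038 with the 5 CPM filter, 0.0014 with DESeq2, 0.011 with limma on log2(FPKM + 1), and −0.31 to 0.22 over left-out libraries. Nr4a1 ran from −0.53 to 0.59 over left-out libraries. With the length offset, without and with the replicate block, Esr1 was 1.00 and 1.01 and Rarg 0.18 and 0.19. Ratio differences ran from −0.50 to 0.13 for Nr2f1 to Nr2f6 and from −0.065 to 0.31 for Nr4a2 to Nr4a3 over left-out libraries.

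The summed control level was 158 FPKM as deposited and 234 as counts per kilobase scaled to the library total. Without a filter Nr1h4 (0.72, edgeR adjusted p = 0.187) and Nr4a3 (1.22, edgeR adjusted p = 0.0835) lost their calls, and Nr4a3 with DESeq2 too (1.38, adjusted p = 0.0518). Among list genes, calls were also lost for Stub1 (0.41, edgeR adjusted p = 0.0504) and Stra8 (1.65, edgeR adjusted p = 0.0841) with the length offset, for Srd5a1 with median-ratio factors (−0.88, edgeR adjusted p = 0.05005), and for Cyp26b1 with length offset and block (−0.89, edgeR adjusted p = 0.0761). For other reversals and lost calls the cause was not tested. Same-numbered libraries deviated together with r of 0.312, −0.256 and 0.106, and differently numbered ones with r of −0.506 to 0.507. Deviations from the mean of a group of 3 depend on each other, so these values cannot decide whether the numbers pair libraries. The replicate block gave 6 receptor genes higher and 13 lower, and 4450 and 5411 of all genes. Low counts limit Nr3c2, Nr4a1, Nr4a3 and the 18 untested genes most.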
